A study of Mus musculus with 9 samples.

Results

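Bloc1s1, Hgsnat and Scara3 are 3 mouse genes whose mRNAs have been reported, in other cells, as substrates of the endoplasmic reticulum (ER) stress sensor IRE1. They were chosen by name and not by a cutoff on values measured here, but with earlier results of these data known. They are 3 of the 54532 genes in the deposited expression table. The 9 libraries came from primary hepatocytes of C57BL/6 mice, which the labels call male, isolated by perfusion of the liver in 2 steps, with 3 libraries in each of 3 groups. The CKO Tu group was cells with hepatocyte deletion of COX-2, genotype COX-2fl/fl/Alb-Cre+ (called CKO), given tunicamycin at 6 μmol/L for 24 hours. The WT Tu group was cells of littermates without Cre, COX-2fl/fl/Alb-Cre- (called WT), matched for age, with the same tunicamycin treatment. The WT DMSO group was cells of the same WT genotype with the vehicle DMSO for 24 hours. The cells of every group carried the floxed COX-2 alleles and were first kept in 1% serum for 2 hours. Cre was driven by the albumin promoter, which is active in hepatocytes, so other liver cells of the CKO mice keep the gene. No CKO group with vehicle was analysed here, so the effect of tunicamycin in CKO cells was not measured.

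IRE1 spans the ER membrane and clusters when unfolded proteins gather in the ER, as they do when tunicamycin blocks N-glycosylation. Its cytosolic RNase then cuts the Xbp1 mRNA in a pair of stem-loops, and the ligase RTCB joins the outer pieces into the message of an active transcription factor. The same RNase can cut other mRNAs at the ER, whose fragments are then degraded by the cytosolic exosome and XRN1. This is known as regulated IRE1-dependent decay, and in the liver it has been studied for mRNAs of secreted and metabolic proteins. Many of the cut sites described so far, though not all, lie in a small stem-loop with a CNGCAG motif in the loop. Bloc1s1 encodes a subunit shared by BLOC-1 and BORC, complexes that form lysosome-related organelles and place lysosomes in the cell, and its mRNA is a widely used readout of this decay. Hgsnat encodes a lysosomal membrane enzyme that acetylates the terminal glucosamine of heparan sulfate so that the chain can be broken down. Scara3 encodes a member of the class A scavenger receptor family described as protecting cells from oxidants.

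The loop motif was searched on the transcript strand of each mRNA to show how its best match compares with the known Xbp1 sites. The motif was CNGCAGN, and a match counted as a hairpin where the 7 loop bases were closed by at least 4 stacked base pairs, with G-U pairs allowed. Of 21866 mouse protein-coding genes, each read through 1 transcript, 92.8% held the motif and 11.4% held such a hairpin. Each sequence is 29 bases of the GENCODE vM21 transcript, on the GRCm38 build (mm10), read 5′ to 3′ on the transcribed strand, with the loop in capitals.
Xbp1, upstream splice loop, chr11:5524265-5524293, plus strand, exon 4, coding, 6 stem pairs: gtctgctgagtCCGCAGCactcagactat
Xbp1, downstream splice loop, chr11:5524291-5524319, plus strand, exon 4, coding, 7 stem pairs: tatgtgcacctCTGCAGCaggtgcaggcc
Bloc1s1, longest stem, chr10:128920000-128920028, minus strand, exon 4, coding, 4 stem pairs: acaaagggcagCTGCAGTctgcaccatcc
Hgsnat, longest stem, chr8:25955740-25955768, minus strand, exon 11, coding, 3 stem pairs: tccctggtgtcCTGCAGCggttgggagtg
Scara3, longest stem, chr14:65953511-65953539, minus strand, exon 1, 5′ UTR, 5 stem pairs: ccgcgggggccCTGCAGAggcccgcgcag

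The search found both Xbp1 splice loops and no other hairpin in the 2129 bases of Xbp1-201. Bloc1s1-201, at 550 bases, held 4 motifs and 1 hairpin, and 2.9% of the 350 transcripts of similar length (within 10%) held a hairpin. Hgsnat-201, at 2694 bases, held 4 motifs and no hairpin at this threshold. Its longest stem was 1 pair short, and 25.2% of 2486 transcripts of similar length had a stem at least as long. Scara3-201, at 3597 bases, held 8 motifs and 1 hairpin, against 13.7% of 2322 transcripts of similar length with a hairpin. These matches are descriptions of the letters in each transcript. No file here reports cleavage.

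Each library held between 14897358 and 16001484 fragments assigned to genes. On the second principal component, with 23.2% of the variance, WT Tu replicate 1 lay at -36.6 and the other WT Tu libraries both at -19.6. The labels call the mice male, but each of the 6 WT libraries held at least 20659 fragments of Xist and 0 of Uty, Kdm5d, Ddx3y and Eif2s3y, which lie on the Y chromosome. The CKO Tu libraries held 0 to 3 Xist fragments and 3486 to 3633 from those Y-linked genes. Genotype and sex-linked expression therefore cannot be told apart in CKO Tu against either WT group. Ptgs2, which encodes COX-2, had 1, 1 and 2 fragments in CKO Tu, 8, 5 and 5 in WT Tu, and 0, 13 and 8 in WT DMSO. Hspa5, the ER chaperone BiP that rises with ER stress, averaged 4862 ± 153 FPKM in CKO Tu, 5312 ± 395 in WT Tu and 576 ± 14.4 in WT DMSO (SD, n = 3 each). Nothing in the labels says that replicates came from separate animals, so a p-value measures only how these libraries vary.

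Hgsnat was the 1 of the 3 members with enough reads to be tested, and it fell in WT Tu against WT DMSO and fell again in CKO Tu against WT Tu. The gene (ENSMUSG00000037260) lies on the minus strand at chr8:25944453-25976753, and none of its 3305 exonic bases overlaps an exon of another gene. FPKM, the fragments of a gene divided by its length and the size of its library, was 82.5, 84.3 and 78.8 in CKO Tu. In WT Tu it was 130.6, 130.6 and 128.0, and in WT DMSO 157.3, 196.6 and 201.3. The 3 groups did not overlap, and WT DMSO replicate 1 lay well under the other WT DMSO libraries. The means were 81.9 ± 2.82 FPKM in CKO Tu, 129.7 ± 1.48 in WT Tu and 185 ± 24.2 in WT DMSO (SD, n = 3 each). They rest on 12557, 19180 and 29504 fragments in that order of groups. By mean FPKM the gene ranked 511 in CKO Tu, 328 in WT Tu and 199 in WT DMSO among 22046 protein-coding genes, so it was among the more abundant mRNAs in all 3 groups.

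Changes were tested with limma on log2(FPKM + 1) for the 11858 genes that reached 1 FPKM in 3 or more libraries, with p-values adjusted by the Benjamini-Hochberg method over all of them. In WT Tu against WT DMSO, Hgsnat changed by -0.50 ± 0.09 on the log2 scale (standard error, adjusted p = 0.00268), a mean 29.9% lower. In that comparison 33.6% of the genes tested were called in either direction, 17.7% higher and 15.9% lower, and 22.8% had groups that did not overlap with WT Tu lower. In CKO Tu against WT Tu it changed by -0.66 ± 0.09 (adjusted p = 0.000583), a mean 36.9% lower. There 38.3% of the genes tested were called, 18.7% higher and 19.6% lower, and 26.2% had groups that did not overlap with CKO Tu lower. Among the genes tested, 7.36% had a lower change than Hgsnat in WT Tu against WT DMSO, and 4.38% did in CKO Tu against WT Tu. Both comparisons use the WT Tu libraries. CKO Tu against WT DMSO, which differ in both genotype and treatment, gave -1.16 ± 0.09 (adjusted p = 1.09e-05), with 49.5% of the genes tested called, 25.3% higher and 24.2% lower, and 31.3% without overlap and lower in CKO Tu. In bulk RNA, fewer cells of a type and less RNA per cell cannot be told apart.

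**Figure D1:**
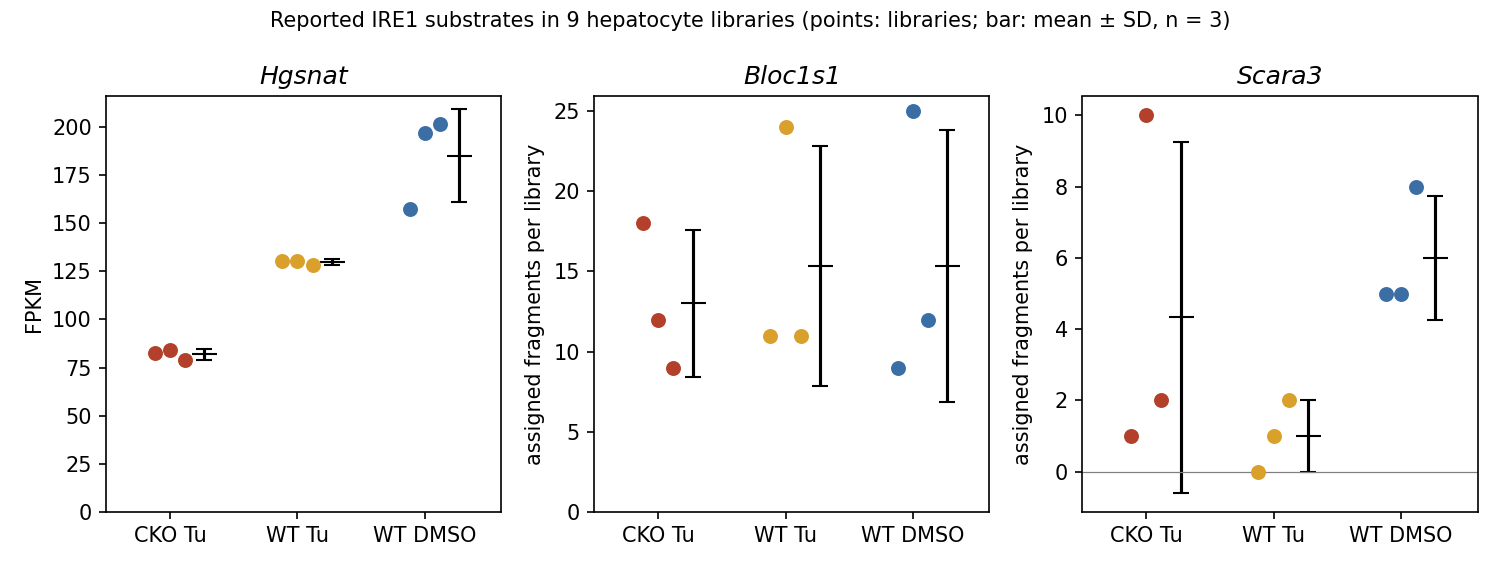
FPKM of Hgsnat (left) and assigned fragments of Bloc1s1 (middle) and Scara3 (right) in CKO Tu, WT Tu and WT DMSO. Points are libraries and bars are the mean ± SD (n = 3). Hgsnat lies at 78.8 to 84.3 FPKM in CKO Tu, near 130 in WT Tu and at 157.3 to 201.3 in WT DMSO, while the Bloc1s1 groups overlap at 9 to 25 fragments and Scara3 has 10 or fewer in every library.

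Markers of liver cell types moved with the groups as well. The summed FPKM of 10 hepatocyte markers was 17064 to 18178 in CKO Tu, 19211 to 20415 in WT Tu and 19750 to 21988 in WT DMSO. That sum is led by the most abundant secreted proteins. By single genes, 4 of the 10 were called lower and 0 higher in WT Tu against WT DMSO. Of all genes tested, 15.9% were lower there and 17.7% higher. The 4 were Hnf4a (-0.72 ± 0.09, adjusted p = 0.000524), Cyp2e1, Apoa2 and Ttr, and over the alternatives 2 to 4 were lower. In CKO Tu against WT Tu, 8 of the 10 were called higher and 1, Alb, lower, beside 18.7% and 19.6% of all genes tested. Hnf4a rose there by 1.48 ± 0.09, and Cyp2e1, which is also among the other reported substrates below, rose too. Over the alternatives 5 to 8 were higher in that comparison, and Alb lost its call with no filter and with quantile normalization. The 9 endothelial markers summed to 3.49 to 4.04 FPKM in CKO Tu, 4.76 to 5.90 in WT Tu and 11.2 to 11.8 in WT DMSO, so their order of groups was that of Hgsnat at a much lower level. Of these, 4 were tested, Pecam1, Stab1, Eng and Cdh5. All 4 were called lower in WT Tu against WT DMSO, beside 15.9% of all genes tested. Pecam1, Stab1 and Eng passed the filter only through the WT DMSO libraries, where they were high. Their lower calls against that group are therefore no separate support for a fall. In CKO Tu against WT Tu, Pecam1 alone of the 4 was called, lower, beside 19.6% lower of all genes tested. The 10 Kupffer cell markers summed to 92.7 to 107, 96.9 to 115 and 75.2 to 92.8 FPKM in CKO Tu, WT Tu and WT DMSO, with 6 of them, Adgre1, Clec4f, Vsig4, Timd4, C1qa and C1qb, at 0 fragments in CKO Tu. Vsig4 and C1qb were at 0 in WT Tu, and Vsig4 in WT DMSO. Cd68 alone, at means of 100.4, 107 and 83.1 FPKM in CKO Tu, WT Tu and WT DMSO, made up nearly all of that sum, and other markers ran against it. Lyz2, a lysozyme of myeloid cells, averaged 0.165, 0.149 and 1.48 FPKM in CKO Tu, WT Tu and WT DMSO. Its mean was 89.9% lower in WT Tu than in WT DMSO (log2 change of FPKM + 1 of -1.11, limma adjusted p = 0.000727). Like Pecam1, Lyz2 passed the filter only through the WT DMSO libraries, so that call is no separate support for a fall. Csf1r, the receptor for a macrophage growth factor, had 28, 24 and 70 fragments in CKO Tu, WT Tu and WT DMSO, Mpeg1 48, 45 and 125, and Adgre1 0, 7 and 24 in the same groups. Cholangiocyte markers summed to 34.3 to 38.3 FPKM in CKO Tu, 22.8 to 24.3 in WT Tu and 22.7 to 25.9 in WT DMSO. That sum was carried by Spp1, at means of 27.2, 16.7 and 15.3 FPKM in CKO Tu, WT Tu and WT DMSO, and Sox9, at 8.25, 5.57 and 7.74. Epcam, at 0.359, 0.722 and 0.642 FPKM, and Krt19, at 0.487, 0.474 and 0.672, did not follow it. Stellate cell and fibroblast markers summed to 6.52 to 7.25, 5.13 to 5.92 and 5.45 to 6.66 FPKM in CKO Tu, WT Tu and WT DMSO. The higher sum in CKO Tu came from Reln, at 1.90, 0.121 and 0.131 FPKM in the same groups, beside Ecm1 at 4.89, 4.96 and 5.66. Dcn had 22, 44 and 42 fragments, Col3a1 1, 10 and 21, and Col1a1 0, 7 and 9. Lymphocyte and neutrophil markers summed to 3.03 to 4.56, 4.80 to 6.45 and 1.43 to 1.76 FPKM in CKO Tu, WT Tu and WT DMSO, of which Camp, an antimicrobial peptide gene, made up 3.33, 5.21 and 0.738 on average. Ptprc, the pan-leukocyte CD45, had 7, 12 and 22 fragments, S100a8 0, 3 and 5, and S100a9 0, 8 and 9 in the same groups. The part of these cells in the Hgsnat values was not tested.

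Other lysosomal genes of heparan sulfate and related glycan breakdown were divided in WT Tu against WT DMSO, and most fell in CKO Tu against WT Tu. Of 10 such genes, 9 passed the filter, and 2 rose, 2 fell and 5 had no call in WT Tu against WT DMSO, with a median log2 change of -0.080 against -0.0015 for all genes tested. The 4 calls are 44.4% of the 9, beside 33.6% called of all genes tested. Arsg, a lysosomal glucosamine sulfatase, rose by 0.79 ± 0.09 (adjusted p = 0.000254), and Hexa, a hexosaminidase subunit, rose by 0.30 ± 0.05 (adjusted p = 0.00243). Naglu, which removes the glucosamine that HGSNAT has acetylated, changed by -0.33 ± 0.11 (adjusted p = 0.0436, up to 0.109 and not called under 9 of 19 alternatives), and Gusb, the glucuronidase of the pathway, by -0.27 ± 0.07 (adjusted p = 0.0155). In CKO Tu against WT Tu, 8 of the 9 (88.9%) fell and 1 rose, beside 19.6% lower of all genes tested, with a median of -0.44 against -0.0021 for all. Among these 9, Gusb changed most, by -0.78 ± 0.07 (adjusted p = 7.09e-05), followed by Ids, the iduronate sulfatase, at -0.60, Hexa at -0.49 and Idua, the iduronidase, at -0.46. Arsg was the exception at 0.33 ± 0.09 (adjusted p = 0.0193, and 0.0675 at most, where its call was lost without WT Tu replicate 2 or CKO Tu replicate 3). Hgsnat itself stood above each of these genes in every library. The most abundant of them, Hexa, averaged 28.8 ± 1.12 FPKM in CKO Tu, 40.9 ± 0.827 in WT Tu and 32.9 ± 1.41 in WT DMSO (SD, n = 3 each).

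**Figure D2:**
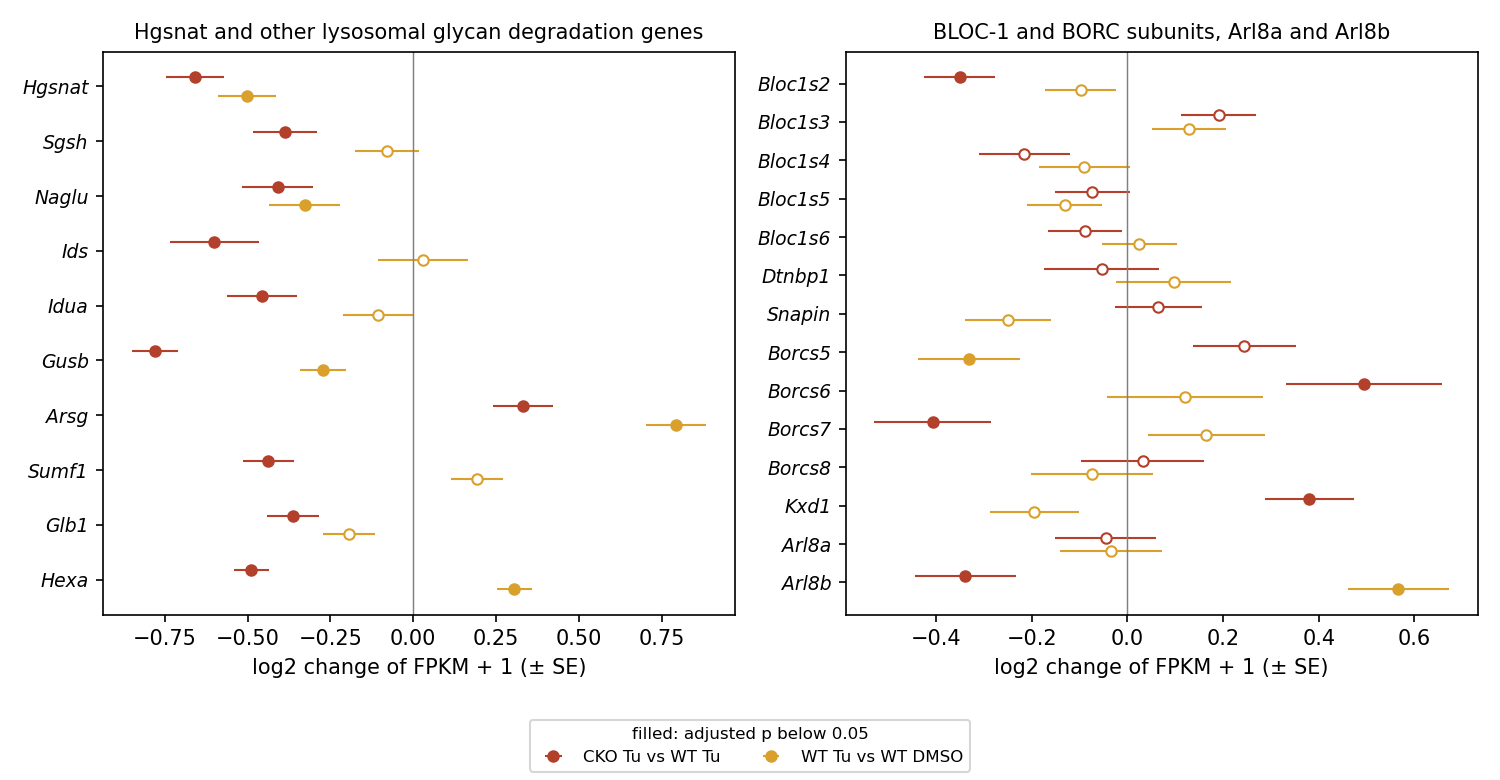
Log2 change of FPKM + 1 (± standard error) for Hgsnat and 9 other lysosomal genes of glycan breakdown (left) and for 14 genes of BLOC-1 and BORC subunits and the lysosomal GTPases Arl8a and Arl8b (right). Red is CKO Tu against WT Tu, yellow is WT Tu against WT DMSO, and filled points have an adjusted p below 0.05. On the left, 8 of the 9 other genes are lower in CKO Tu, while WT Tu against WT DMSO has 2 higher and 2 lower; on the right most points are open.

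Bloc1s1 was barely counted in any group, and no difference between groups was detectable at this depth. The gene (ENSMUSG00000090247) lies on the minus strand at chr10:128917882-128924035 with 1288 exonic bases. It had 18, 12 and 9 fragments in CKO Tu, 11, 24 and 11 in WT Tu, and 9, 25 and 12 in WT DMSO. The groups overlapped, and replicate 2 was the highest library in both WT groups. The mean was 0.651 ± 0.221 FPKM in CKO Tu, 0.787 ± 0.343 in WT Tu and 0.735 ± 0.390 in WT DMSO (SD, n = 3 each), under the filter for the test across all genes.

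The ratio of Bloc1s1 fragments per library size was therefore given with its 95% exact binomial interval, which covers counting error only. It was 1.08 (0.70 to 1.66) for WT Tu over WT DMSO (p = 0.7, exact two-sided permutation test over 6 libraries). For CKO Tu over WT Tu it was 0.817 (0.519 to 1.28; p = 0.7 by the same exact test), and for CKO Tu over WT DMSO 0.881 (0.56 to 1.38; exact p = 0.9). With 3 libraries against 3, this test cannot give a p below 0.1. With an interval of 0.70 to 1.66, these counts set no narrow bound on the change of Bloc1s1 with tunicamycin. The direction of each ratio also depended on single libraries. WT Tu over WT DMSO lay on either side of 1 with libraries left out in turn, with log2 ratios of -0.33 to 0.64, and was -0.024 with library size taken as total fragments.

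Most exonic bases of Bloc1s1 are also exonic in Rdh5, a retinol dehydrogenase gene on the same strand at chr10:128913593-128922888. In the GENCODE vM21 annotation, 720 of the 1288 exonic bases of Bloc1s1 (55.9%) are also exonic in Rdh5, which leaves 568. Of 21951 protein-coding genes, 8.0% share any exonic base with another gene on the same strand, and 1.77% share as large a part as Bloc1s1 or more. In the reference transcript Bloc1s1-201, exon 1 with 150 bases is free of Rdh5, exons 2 and 3 with 73 and 133 bases are shared whole, and exon 4 shares 160 of 194 bases. That leaves 184 of 550 bases, and the stem-loop printed for Bloc1s1 falls in the shared part of exon 4. How fragments over both genes were counted is not given in the sources used here.

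**Figure D3:**
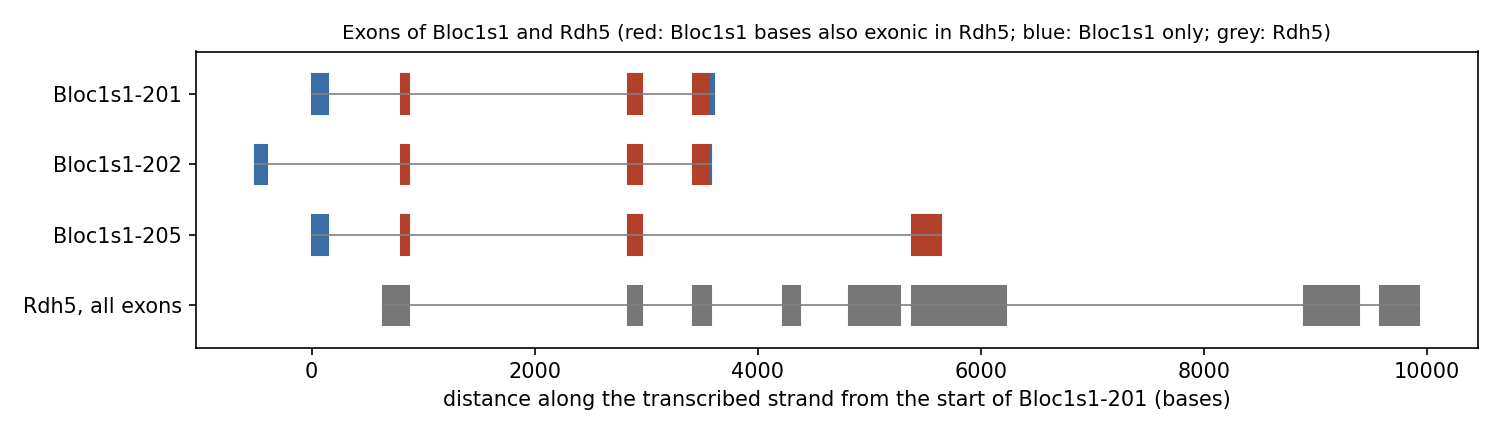
Exons of 3 Bloc1s1 transcripts and all exons of Rdh5, drawn to scale by distance in bases from the start of Bloc1s1-201 along the transcribed strand. Red marks Bloc1s1 bases that are also exonic in Rdh5, blue marks Bloc1s1 bases alone, and grey marks Rdh5. In each transcript only the first exon and, in 2 of them, the last bases of exon 4 are blue.

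The level of Bloc1s1 was low beside its partners. A set of 14 genes, the other BLOC-1 and BORC subunits with Arl8a and Arl8b, had a median of 5.94 to 7.59 FPKM per library, and the lowest of them had 1.12 to 1.92 FPKM. Bloc1s1 was below that lowest partner in 8 of 9 libraries, WT Tu replicate 2 being the exception at 1.18 FPKM against 1.12. If every counted Bloc1s1 fragment had come from the 568 bases free of Rdh5, the mean would be 1.48 FPKM in CKO Tu, 1.79 in WT Tu and 1.67 in WT DMSO. Over the 184 free bases of Bloc1s1-201 it would be 4.55, 5.51 and 5.15 FPKM in CKO Tu, WT Tu and WT DMSO. The part of the overlap in the low counts was not tested.

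Rdh5, looked up after the values of Bloc1s1 were seen, had 8.30, 7.46 and 8.27 FPKM in CKO Tu, 9.63, 11.3 and 11.3 in WT Tu, and 11.9, 14.9 and 13.6 in WT DMSO. It changed by -0.30 ± 0.09 in WT Tu against WT DMSO (limma adjusted p = 0.0357, up to 0.119 and not called under 7 of 19 alternatives) and by -0.38 ± 0.09 in CKO Tu against WT Tu (limma adjusted p = 0.0116). Reads from Bloc1s1 and Rdh5 in the shared exons cannot be told apart, so the values of Rdh5 are uncertain too.

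The partners of Bloc1s1 changed little in WT Tu against WT DMSO, where 1 of 14 rose, 1 fell and 12 had no call (14.3% called, beside 33.6% of all genes tested). Arl8b, a small GTPase that BORC recruits to lysosomes, rose by 0.57 ± 0.11 (adjusted p = 0.00354), and the BORC subunit gene Borcs5 fell by 0.33 ± 0.11 (adjusted p = 0.0427). The Borcs5 call was lost under 12 of the 18 alternatives that tested it, quantile normalization and no filter among them (adjusted p up to 0.129), while with library size taken as total fragments 4 of the 14 were lower. Between CKO Tu and WT Tu, 2 rose, 3 fell and 9 had no call, so 35.7% were called, near the 38.3% of all genes tested. Borcs6 and Kxd1 were higher, by 0.49 and 0.38, and Borcs7, Bloc1s2 and Arl8b changed by -0.41, -0.35 and -0.34. Of these 5, Kxd1 and Bloc1s2 kept their call under every alternative that tested them, while Borcs6 lost it under 10, Borcs7 under 7 and Arl8b under 7. Over the alternative settings, 1 to 3 of them were higher and 1 to 3 lower in that comparison.

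Scara3 was near the limit of detection in every group. The gene (ENSMUSG00000034463) lies on the minus strand at chr14:65919394-65953935, with 3597 exonic bases and no overlap with exons of another gene. It had 1, 10 and 2 fragments in CKO Tu, 0, 1 and 2 in WT Tu, and 5, 5 and 8 in WT DMSO. The WT Tu libraries were all below the WT DMSO libraries, while CKO Tu spanned both because of replicate 2. The count of 0 in WT Tu replicate 1 allows up to 3 fragments. In FPKM the means were 0.0779 ± 0.0884 in CKO Tu, 0.0184 ± 0.0188 in WT Tu and 0.104 ± 0.0319 in WT DMSO (SD, n = 3 each).

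Scara3 was 0.18 times as abundant in WT Tu as in WT DMSO by fragments per library size (95% exact binomial interval 0.0339 to 0.615, counting error only), from 3 and 18 fragments. The ratio was 0.0894 without WT Tu replicate 3 and 0.263 without WT Tu replicate 1, the ends of its range with libraries left out in turn. The exact two-sided permutation test over these 6 libraries gave p = 0.1, the smallest it can give, and with no filter on low values limma gave an adjusted p of 0.268. CKO Tu over WT Tu was 4.18 (1.15 to 22.9; exact p = 0.4), from 13 and 3 fragments. CKO Tu replicate 2 held 10 of those 13 fragments, and without it the log2 ratio of 2.06 dropped to 0.53. CKO Tu over WT DMSO was 0.75 (0.338 to 1.62; exact p = 0.6), and its log2 ratio was 0.064 without CKO Tu replicate 1. No call was made for Scara3 in any comparison.

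Among other class A scavenger receptors, Colec12 was the gene with enough reads to test. It averaged 30.3 ± 2.40 FPKM in CKO Tu, 41.7 ± 1.31 in WT Tu and 26.2 ± 4.94 in WT DMSO (SD, n = 3 each), and so rose by 0.66 ± 0.12 in WT Tu against WT DMSO (adjusted p = 0.0035), while it fell by 0.45 ± 0.12 in CKO Tu against WT Tu (adjusted p = 0.0191). The lower call in CKO Tu was lost with no filter and without WT Tu replicate 3, CKO Tu replicate 1 or CKO Tu replicate 3 (adjusted p up to 0.0669). Scara5, a ferritin receptor, had 27, 24 and 12 fragments in CKO Tu, 0 in each WT Tu library, and 3, 1 and 2 in WT DMSO. The macrophage receptors Msr1 and Marco had 0 fragments in CKO Tu and WT Tu, and 2 and 6 in WT DMSO.

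Other mRNAs reported as IRE1 substrates were lower in WT Tu than in WT DMSO. Of 15 such genes, 11 passed the filter, and all 11 fell, with a median log2 change of -0.78. The groups did not overlap for any of the 11, and 10 of them averaged at least 1 FPKM in both groups, Ces1e being the exception. Of all genes tested, 15.9% were called lower and 22.8% had groups that did not overlap with WT Tu lower. This list was chosen with earlier results of these data known, and 6 of the 11 are Ces1 carboxylesterase genes, related neighbours on chromosome 8 whose reads counting can split. Outside that family, Cyp1a2, a drug-metabolizing cytochrome P450, changed by -0.87 ± 0.12 (adjusted p = 0.000689), and Tapbp, the tapasin of peptide loading, by -0.78 ± 0.07 (adjusted p = 7.8e-05). Sparc, a secreted matrix protein and an early reported substrate, changed by -0.50 ± 0.14 (adjusted p = 0.0213). Ergic3, an ER-to-Golgi cargo receptor, changed by -0.48 and Cyp2e1, another cytochrome P450, by -0.45. Hgsnat at -0.50 lay within this range, though the pseudocount shrinks the log2 change of genes near 1 FPKM such as Sparc. By mean FPKM the 11 were 26.9% (Cyp2e1) to 83.9% (Ces1b) lower. Sparc was 43.9% lower and Hgsnat 29.9%, near the weak end. Ces1b, at -2.09 ± 0.16 (adjusted p = 2.42e-05), changed most.

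In CKO Tu against WT Tu the same 11 genes were divided, with 5 higher (45.5%), 2 lower (18.2%) and 4 without a call, beside 18.7% higher and 19.6% lower of all genes tested, and a median of 0.31. Ces1b, Ces1e, Ces1f, Ces1g and Cyp2e1 rose, by 1.37, 0.54, 1.00, 0.63 and 0.31. Sparc, at -0.67 ± 0.14 (adjusted p = 0.00523), and Tapbp, at -0.33 ± 0.07 (adjusted p = 0.00694), fell in CKO Tu as Hgsnat did. Sparc passed the filter only with the WT DMSO libraries, where it was highest, and was not tested in the fit to CKO Tu and WT Tu alone. Its lower calls are therefore no separate support for a fall. Sparc averaged 0.340 ± 0.142 FPKM in CKO Tu, 1.13 ± 0.258 in WT Tu and 2.01 ± 0.329 in WT DMSO, and Tapbp 17.8 ± 0.624, 22.7 ± 2.07 and 39.5 ± 2.04 FPKM in the same groups (SD, n = 3 each). Of the 3628 exonic bases of Tapbp in GENCODE vM21, 1053 (29.02%) overlap exons of other genes on either strand, and 149 do on the same strand. Its deposited length was 3296 bases, so the annotation behind its values differs for this gene. Over the 19 alternatives, 2 to 6 of the list were higher and 1 to 3 lower in this comparison. The 5 higher calls became 3 without WT Tu replicate 1, without CKO Tu replicate 1 or without CKO Tu replicate 2. They also became 3 with no filter, where Ces1e and Cyp2e1 had no call. In WT Tu against WT DMSO, Sparc lost its call with a pseudocount of 0.1, with no filter, and without WT Tu replicate 1, WT Tu replicate 3 or WT DMSO replicate 3 (adjusted p up to 0.08).

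**Figure D4:**
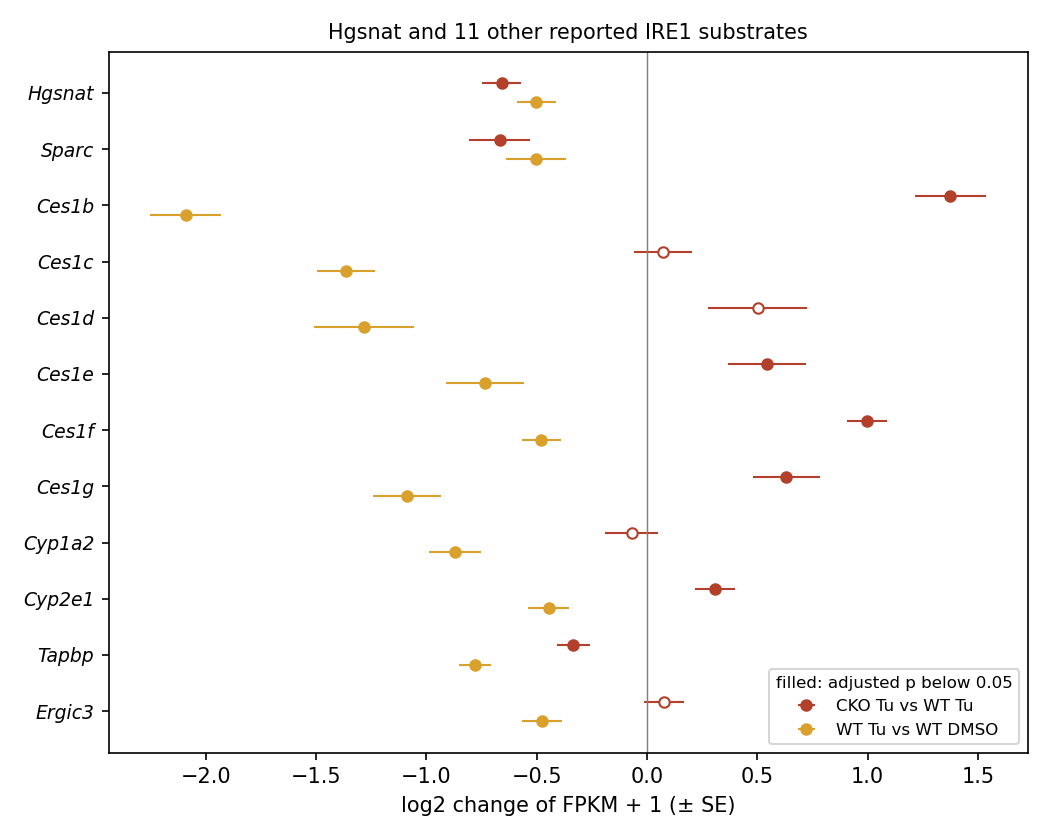
Log2 change of FPKM + 1 (± standard error) for Hgsnat and 11 other mRNAs reported as IRE1 substrates. Red is CKO Tu against WT Tu, yellow is WT Tu against WT DMSO, and filled points have an adjusted p below 0.05. All yellow points lie left of 0, while the red points of Hgsnat, Sparc and Tapbp lie left and those of Ces1b, Ces1e, Ces1f, Ces1g and Cyp2e1 right.

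Of the 4 reported substrates under the filter, Itgb2, an integrin of leukocytes, had 0, 2 and 4 fragments in CKO Tu, 10, 13 and 10 in WT Tu, and 36, 44 and 34 in WT DMSO. Pdgfrb, a receptor of stellate cells, had 1, 8 and 9 fragments over the libraries of CKO Tu, WT Tu and WT DMSO. Col6a1, a collagen, had 0, 2 and 7 and Pmp22, a membrane protein of myelin, 1, 1 and 2 in the same groups. The Itgb2 groups did not overlap. Of all genes tested, 22.8% had no overlap and were lower in WT Tu against WT DMSO, and 26.2% in CKO Tu against WT Tu. Itgb2 is a marker of cells other than hepatocytes, and the part of those cells in its counts was not tested.

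The mRNA of the enzyme itself did not change detectably. Ern1, which encodes IRE1 alpha, had 46.8, 47.3 and 47.8 FPKM in CKO Tu, 46.7, 47.3 and 48.8 in WT Tu, and 46.9, 48.0 and 46.6 in WT DMSO. The groups overlapped, with log2 changes of 0.013 ± 0.043 in WT Tu against WT DMSO (adjusted p = 0.835) and -0.010 ± 0.043 in CKO Tu against WT Tu (adjusted p = 0.873). Xbp1 rose in both comparisons, by 0.58 ± 0.05 (adjusted p = 3.71e-05) and 0.42 ± 0.05 (adjusted p = 0.000267). Its means were 124.9 ± 3.74 FPKM in CKO Tu, 93.1 ± 2.48 in WT Tu and 61.7 ± 1.76 in WT DMSO (SD, n = 3 each), in the reverse order to Hgsnat. Gene-level FPKM does not separate spliced from unspliced Xbp1, so IRE1 RNase activity was not measured.

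Of 13 genes for IRE1 and its regulators, 12 were tested. In WT Tu against WT DMSO, 7 rose, 1 fell and 4 had no call, and in CKO Tu against WT Tu 1 rose, 3 fell and 8 had no call. The share called was 66.7% in the first, beside 33.6% of all genes tested, and 33.3% in the second, near the 38.3% of all. Dnajb9, an ER cochaperone that holds IRE1 inactive, rose by 2.43 ± 0.10 with tunicamycin (adjusted p = 6.18e-07) and fell by 0.47 ± 0.10 in CKO Tu (adjusted p = 0.0065). Ptpn1, an ER phosphatase reported to aid IRE1 signalling, fell in both, by 0.26 ± 0.08 (adjusted p = 0.0428) and 0.38 ± 0.08 (adjusted p = 0.00785). Its call with tunicamycin was lost under 9 of 19 alternatives, no filter among them (adjusted p up to 0.123). Tmbim6, an ER membrane protein known to restrain IRE1, rose by 0.30 ± 0.07 with tunicamycin (adjusted p = 0.0107) and fell by 0.30 ± 0.07 in CKO Tu (adjusted p = 0.00848), and its rise had no call with total-fragment scaling (adjusted p = 0.091). Rtcb had no call in either comparison. All 16 genes known to be induced by XBP1 rose in WT Tu against WT DMSO, beside 17.7% higher of all genes tested. Their median was 2.15, led by Sdf2l1 at 5.45 and Pdia4 at 4.21. Whether XBP1 or another factor raised these genes here was not tested. In CKO Tu against WT Tu 3 of the 16 rose, 3 fell and 10 had no call (37.5% called, near the 38.3% of all genes tested). The median was 0.013 there, and over the alternatives 0 to 4 were lower.

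Of 18 genes of mRNA decay, a list not limited to factors that act in the cytosol, 17 were tested. In CKO Tu against WT Tu 11 of them (64.7%) fell, beside 19.6% lower of all genes tested, and in WT Tu against WT DMSO 3 (17.6%) rose, the share of all genes tested being 17.7%. In WT Tu against WT DMSO, Ttc37, a part of the Ski complex that feeds the exosome, rose by 0.71 ± 0.07 (adjusted p = 0.000133). Hbs1l, which acts with Pelo on stalled ribosomes, rose by 0.50 ± 0.07 (adjusted p = 0.000562), and Dis3, an exosome nuclease, by 0.42 ± 0.08 (adjusted p = 0.00429). The other 14 had no call, though with library size taken as total fragments 3 were lower. In CKO Tu against WT Tu 6 had no call, and the median was -0.22. Exosc10 changed by -0.49 ± 0.05 (adjusted p = 0.000224) and Exosc3 by -0.42 ± 0.08 (adjusted p = 0.00463), both exosome subunits. The count of 11 became 5 without CKO Tu replicate 2, 7 without WT Tu replicate 1 and 7 without WT Tu replicate 2. Xrn1, the exonuclease that takes the downstream fragments, had a log2 change of 0.21 ± 0.09 in CKO Tu (adjusted p = 0.0875).

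The genes whose levels followed each member most closely were named by Pearson correlation of log2(FPKM + 1) over the 9 libraries, as a description with no test, since all 9 share their groups and scaling. For Hgsnat these were Actb (r = 0.993), Pttg1ip (0.991), Actn1 (0.990), Fez2 (0.989) and Specc1 (0.989). Actb, cytoplasmic beta-actin, averaged 406 ± 26.3 FPKM in CKO Tu, 625 ± 27.8 in WT Tu and 922 ± 105 in WT DMSO, and Actn1, the actin crosslinker alpha-actinin, 12.3 ± 0.599, 22.9 ± 1.22 and 33.2 ± 3.71 in the same groups (SD, n = 3 each). Both had the order of groups of Hgsnat, which follows from their choice by correlation with that gene. For Bloc1s1 they were Eif5a2 (0.846), Megf11 (0.817), its BLOC-1 partner Dtnbp1 (0.788), Bhmt2 (0.773) and Odf2 (0.768). For Scara3 they were Pus10 (0.927), Mpnd (0.926), Rdh10 (0.910), Mus81 (0.898) and Tmsb4x (0.880). The values for Bloc1s1 and Scara3 rest on so few fragments that they carry no finding.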

How the data were processed

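The deposited table gives FPKM for 54532 genes, made by the authors. HISAT2 2.2.1, featureCounts 1.5.0-p3 and the mm10 build are named in the submitters' processing notes. The annotation release, the strand setting and the handling of fragments over more than 1 gene are not given in the sources used here. FPKM times gene length came in whole steps in every library, within a tolerance of 0.001 fragments, which gave back the fragments per gene and library sizes 0.948 to 1.07 times the totals. File lengths equalled GENCODE vM21 exonic lengths for 53325 genes, so that annotation was used for exons and transcripts.

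Values were taken as log2(FPKM + 1), with a pseudocount of 1 that understates the change of low genes. Genes that reached 1 FPKM in 3 or more libraries were fitted with limma 3.58.1 (R 4.3.3) on all 9 libraries, with group means and a trend of variance on intensity, two-sided, at an adjusted p of 0.05. The fit was tested on simulated data. Members under the filter were compared by fragments per library size, with an exact permutation test and a 95% exact binomial interval. Duplicate fragments cannot be told from separate molecules.

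The members, gene lists and tests were chosen with earlier results of these data known. Some genes of the lists are not reported here. Named genes were the members, 7 genes of ER stress and COX-2, all other reported substrates, up to 4 called genes per list with the largest change in each of the first 2 comparisons, and 5 genes most correlated with each member. Rdh5 was added after its values were seen, and Xrn1, Msr1, Marco, Scara5, Hexa as the most abundant of its list, Alb and the other cell type markers were also named outside this rule. Alternatives were another pseudocount (0.1), no filter, a filter at FPKM 5, upper-quartile, quantile and total-fragment scaling, a fit to the compared groups alone, the replicate number as a block, no trend, voom on fragments with TMM scaling, and each library left out. Applying these to gene lists and single named genes was decided after seeing the data.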

Additional observations from a re-analysis of the deposited data

How the results depend on the processing

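Hgsnat kept its direction and call under all 19 alternatives in each comparison, between -0.63 and -0.44 in WT Tu against WT DMSO, -0.68 and -0.59 in CKO Tu against WT Tu, and -1.27 and -1.09 in CKO Tu against WT DMSO. The counts of genes called stayed within 1.5 times. Same-numbered libraries did not deviate together (r of -0.0967 to 0.0208), so the numbers were not taken as pairs. With the replicate block, Hgsnat had adjusted p of 0.0068, 0.0021 and 9.99e-05 in those comparisons, and 3696, 4248 and 5683 genes were called. In WT Tu against WT DMSO, 52.7% of called genes were higher, against 31.5% with total-fragment scaling and 42.3% with upper-quartile scaling. With total-fragment scaling it was 58.0% against 48.8% in CKO Tu against WT Tu, and 42.6% against 51.1% in CKO Tu against WT DMSO. Total-fragment scaling moved the median of all genes by -0.11, and Hgsnat then changed by -0.52 relative to it.

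The low counts of the other members limit them. For Bloc1s1, total-fragment scaling turned the log2 ratio of WT Tu over WT DMSO to -0.024. Leaving out libraries in turn gave log2 ratios of -0.33 to 0.64 in WT Tu over WT DMSO, -0.59 to 0.15 in CKO Tu over WT Tu and -0.48 to 0.34 in CKO Tu over WT DMSO. For Scara3 in CKO Tu over WT DMSO it gave -1.94 to 0.064. The 11 mRNA decay genes lower in CKO Tu against WT Tu became 7 with no filter and 5 to 10 with libraries left out. The cause of these shifts was not tested. A filter at FPKM 5 tested fewer genes, and the 11 other reported substrates lower in WT Tu against WT DMSO became 7 of 7 tested, and the 8 lysosomal glycan genes lower in CKO Tu against WT Tu became 5 of 6 tested. A filter at FPKM 5 left Bloc1s1 and Scara3 out, and the settings that change the limma fit alone were not run on their fragment ratios.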
